A study of Mus musculus with 18 samples.

Results

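The response described here is that of WT 10T1/2 cells, a mouse mesenchymal stem cell line that grows as fibroblasts and can be driven to an adipocyte fate, to TGF-β1 followed by an adipogenic mix. It was read from 6 of the 18 bulk RNA sequencing libraries of the series, chosen by genotype alone: 3 of uninduced WT cells and 3 of WT cells that received 1 nM TGF-β1 during 12 h, followed by 48 h in DMII (TGF-β1 + DMII stimulated). DMII is an adipogenic mix of the glucocorticoid dexamethasone, the phosphodiesterase inhibitor 3-isobutyl-1-methylxanthine, insulin, and the cyclooxygenase inhibitor indomethacin. The other 12 libraries came from 2 single-cell derived FOXS1 KO clones under the same treatments and served to estimate the spread and for the comparison at the end. By the labels, cells had been confluent for 2 days when treatment began. Only the combination was sampled, so that TGF-β1, any serum starvation before it, the 4 components of DMII, the change of medium and the time in culture cannot be told apart. The labels do not say whether the 3 libraries of a group came from separate cultures, and p-values therefore measure the spread between these libraries, which may be technical. In bulk RNA, fewer cells of a type and less RNA per cell cannot be told apart.

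TGF-β1 binds a receptor serine kinase pair that phosphorylates SMAD2 and SMAD3, which enter the nucleus with SMAD4 and, in fibroblasts, turn on genes of the contractile apparatus and of the extracellular matrix (the myofibroblast programme). DMII acts by other routes: dexamethasone activates the glucocorticoid receptor, 3-isobutyl-1-methylxanthine blocks phosphodiesterases and so raises cAMP, insulin signals through its own and the IGF1 receptor, and indomethacin inhibits cyclooxygenases and binds PPARγ. In preadipocytes these signals raise C/EBPβ and C/EBPδ, which in turn raise PPARγ and C/EBPα, the factors that switch on lipid storage genes. TGF-β1 is known to oppose that step.

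Total counts ranged from 15576685 to 23650238 in the uninduced libraries and from 21698822 to 24471081 in the stimulated libraries. Levels are given as CPM (counts scaled to a common library size with TMM factors), for replicates 1, 2 and 3 in that order. Across genes, Pearson's r between replicates was 0.981 to 0.991 in uninduced cells, where replicate 1 stood a little apart, and 0.996 in stimulated cells. Mitochondrially encoded genes held 1.30% ± 0.206 of the counts in uninduced and 1.03% ± 0.0617 in stimulated libraries (SD, n = 3). Of the 11 fibroblast markers chosen, 10 were expressed, among them *Pdgfra*, *Pdgfrb*, *Thy1*, *Vim* and both type I collagen genes, and 1 of the 10 rose and 5 fell. Of the 8 markers each for skeletal muscle, macrophages, endothelium and epithelium, 1, 2, 1 and 1 passed the filter on low counts, of which none rose and 0, 1, 1 and 1 fell, and the summed share of each of these lists was at most 0.00087% of a library, the highest being that of endothelial markers in uninduced replicate 1. The adipocyte markers *Adipoq*, *Plin1*, *Cidec* and *Fabp4*, of which the first 2 were called lower, passed it at group means of at most 1.12 CPM, and the 8 adipocyte markers together held 0.000201% to 0.000241% of uninduced and 0.0000461% to 0.000116% of stimulated libraries. The filter was run on all 18 libraries, so that a gene could pass it through the clone libraries alone. In a fit of the 6 WT libraries 0 adipocyte markers were called lower. For reads in stretches that another gene overlaps, on either strand, the count may be too low or shared. Of the genes named below this touches more than 15% of the exonic length of *Ccn2*, *Cebpb*, *Cebpd*, *Ctla2a*, *Cxcl16*, *Dbp*, *Fbn1*, *Fstl3*, *Hsp90b1*, *Inava*, *Irs1*, *Lipe*, *Nfkb2*, *Notum*, *Pkm*, *S100a4*, *Sfrp2*, *Sned1*, *Tagln*, *Tgif2*, *Tgm2* and *Timp3*.

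Stimulation moved a large part of the transcriptome. Of 14317 genes that passed the filter on low counts, 895 (6.25%) were higher and 1954 (13.6%) were lower in stimulated cells, where calls needed more than a 2-fold change in either direction (log2 fold change beyond 1 or -1) together with an adjusted p below 0.05. The 3 stimulated libraries all lay above the 3 uninduced libraries for 29.9% of the tested genes and all below for 32.1%. The called falls were deeper than the called rises, with a median log2 fold change of -1.998 against 1.57, whereas the median over all tested genes was -0.036. Falls beyond 4 on the log2 scale numbered 303 and rises beyond it 82. Genes that rose were more abundant, with a median level of 30.9 CPM in the higher group against 6.30 CPM for genes that fell. Among the 2352 genes that reached 100 CPM, 244 rose (10.4%) and 165 fell (7.02%). Of the 938 tested genes to which the deposited table gives a transcription factor family, 46 rose (4.90%) and 115 fell (12.3%).

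**Figure D1:**
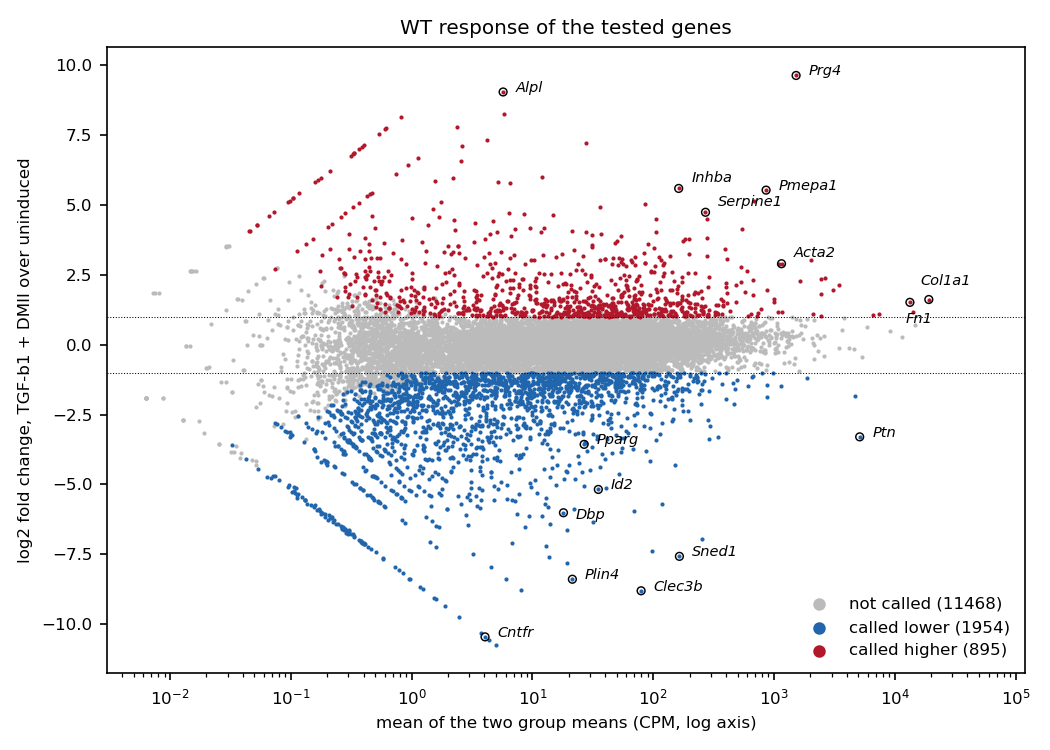
Each point is 1 of the 14317 tested genes, with the mean of the uninduced and stimulated group means in CPM (log axis) against the log2 fold change of stimulated over uninduced WT cells. Red points (895) were called higher and blue points (1954) lower, dotted lines mark a log2 fold change of 1 and -1, and the slanted rows of points at the edges are genes with no or very few counts in a group, whose fitted values are not bounds.

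The genes were grouped into lists by their textbook roles, and a gene can stand in more than 1 list. Among lists with at least 15 tested members, the TGF-β target genes and the MYC and ribosome biogenesis genes had the highest shares called higher, and the interferon-stimulated genes and the core clock genes the highest shares called lower. Counts of list members given below stand beside 6.25% higher and 13.6% lower among all tested genes, and several lists lie near those shares.

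**Figure D2:**
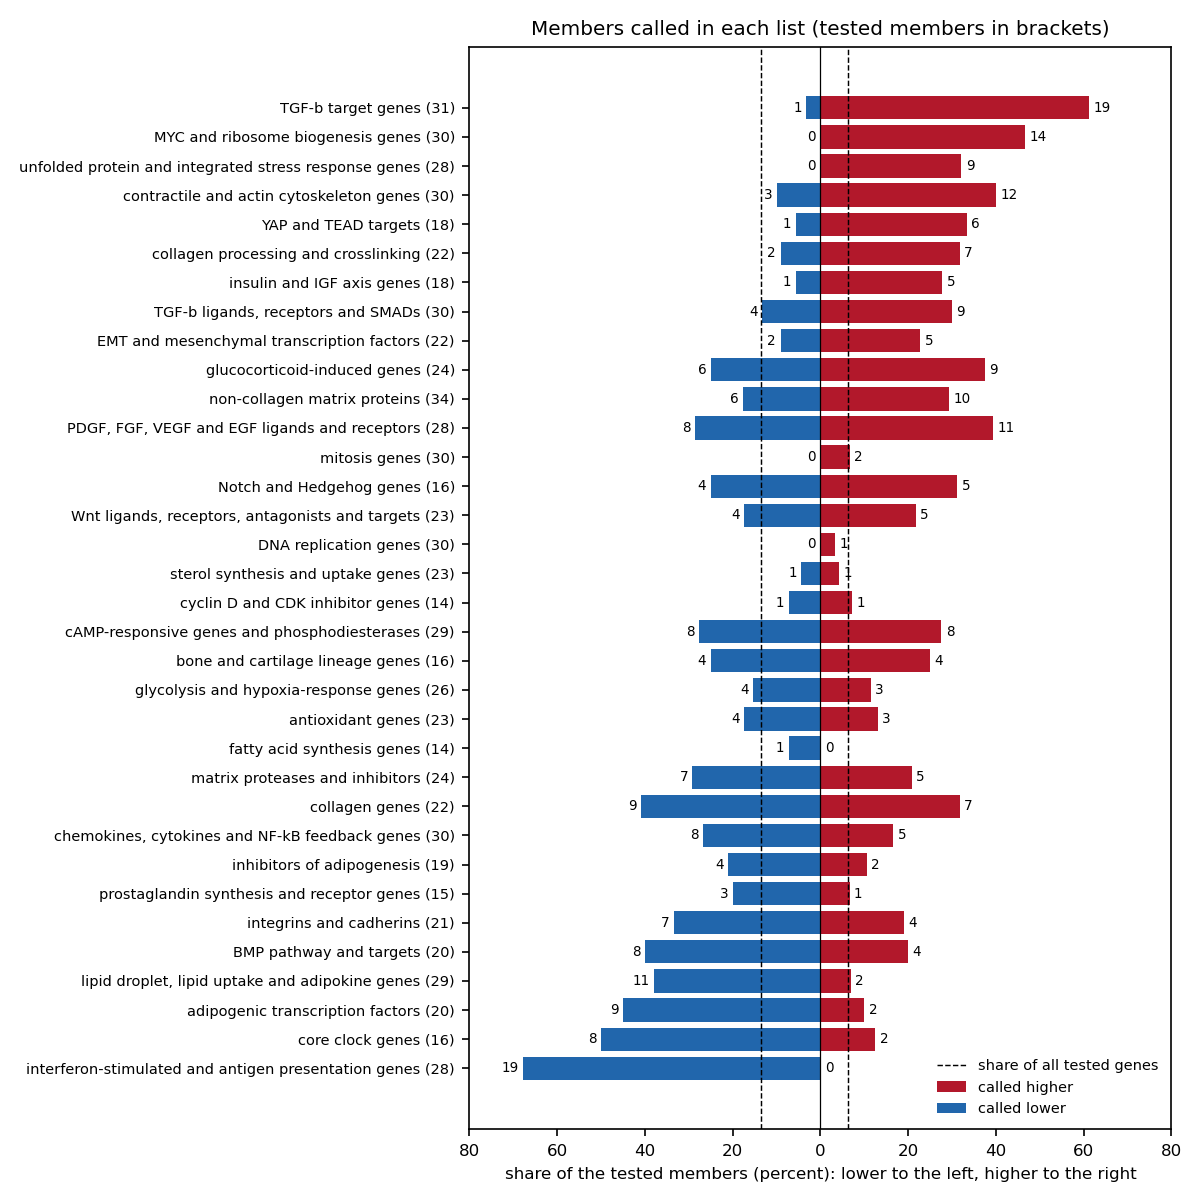
For each list, bars give the percent of its tested members called higher (red, to the right) and lower (blue, to the left), with the number of genes at the end of each bar and tested members in brackets. Dashed lines mark the shares of all tested genes, 6.25% higher and 13.6% lower, and lists run from mostly higher at the top to mostly lower at the bottom.

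Components of the TGF-β pathway itself changed with stimulation. Of 30 genes for its ligands, receptors, SMADs and modulators, 9 rose and 4 fell, and the median log2 fold change was 0.20. The rises lay among ligands, ligand-binding proteins and feedback inhibitors. *Inhba*, which encodes the subunit of activin A, stood at 6.29, 6.08 and 7.32 CPM in uninduced and at 332, 314 and 310.5 CPM in stimulated libraries. *Tgfb3* read 36.3, 40.0 and 35.1 CPM and then 511, 552 and 508 CPM, and *Tgfb1* itself 11.1, 16.7 and 12.8 CPM and then 55.7, 61.6 and 53.9 CPM. The groups did not overlap for any of these 3 genes, and their log2 fold changes were 5.59 (SE 0.13, adjusted p = 4.6e-19) for *Inhba*, 3.82 (SE 0.064, adjusted p = 3.1e-28) for *Tgfb3* and 2.08 (SE 0.096, adjusted p = 1.1e-17) for *Tgfb1*. *Tgfb2* went the other way and fell by 1.57 on the log2 scale (SE 0.063, adjusted p = 3.8e-19), from 161 to 54.2 CPM. *Fst* and *Fstl3*, secreted antagonists of activin, rose by 2.60 and 2.85 on the log2 scale. The intracellular inhibitors *Pmepa1*, *Skil* and *Smad7*, which SMAD signalling itself induces, rose by 5.53, 3.06 and 1.55. The receptor genes and SMADs that carry the signal stayed below the threshold: *Tgfbr1* had a log2 fold change of 0.19, *Tgfbr2* of -0.10, *Smad3* of -0.034 and *Smad4* of -0.12. *Ltbp1*, which binds latent TGF-β in the matrix, fell by 1.30, and its relative *Ltbp2* rose by 1.54. The calls of the 2 other genes that were lower, *Acvrl1*, a type I receptor, and *Tgif2*, a corepressor, were lost without uninduced replicate 1 (adjusted p = 0.072 and 0.077). That of *Tgif2* was also lost without stimulated replicate 1 or 3 (adjusted p = 0.11 and 0.074).

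Genes known as TGF-β targets rose for the most part. Of 32 such genes 31 were tested, 19 rose and 1 fell, with a median log2 fold change of 1.54 beside -0.036 for all tested genes. Summed over the list, these genes held 2.20% ± 0.131 of the counts in uninduced and 5.59% ± 0.193 in stimulated libraries (SD, n = 3, exact two-sided permutation p = 0.10, the smallest that 3 against 3 libraries allow). *Timp1*, an inhibitor of matrix metalloproteinases, read 51.1, 59.8 and 63.7 CPM and then 1007, 996 and 1069 CPM, a log2 fold change of 4.13 (SE 0.074, adjusted p = 3.5e-24). *Il11*, a profibrotic cytokine, lay at 0.815, 0.419 and 0.534 CPM and at 11.5, 10.1 and 6.94 CPM after stimulation, a rise of 4.02 on the log2 scale (SE 0.37, adjusted p = 1.4e-10). For both genes every stimulated library lay above every uninduced library. *Ccn2*, which encodes connective tissue growth factor, rose by 3.79, *Thbs1*, an activator of latent TGF-β, by 3.41, and *Scx*, a transcription factor of tendon and matrix-producing cells, by 3.25 on the log2 scale. *Nox4*, a NADPH oxidase, and *Has2*, a hyaluronan synthase, rose by 2.52 and 2.45. The matrix genes *Tgfbi* and *Postn*, also listed as targets, were not called, with values of 0.025 and 0.0013. The single fall was *Snai2*, a transcriptional repressor of the SNAIL family, at -1.70 (SE 0.074, adjusted p = 2.7e-18), whereas *Snai1* of the same family rose by 1.20.

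The study measured *Foxs1* as a TGF-β1 target in other experiments. In these 6 libraries its level was 1.81, 3.25 and 1.64 CPM uninduced and 3.13, 2.55 and 1.85 CPM stimulated, a log2 fold change of 0.19 (SE 0.21, adjusted p = 0.45). The 2 groups overlapped, and a change was not detectable at this level. The stimulated cells had received both treatments in turn, so that this value and those of the study differ in time and treatment. *Foxs1* lies on chromosome 2 at 152931898 to 152933208 (GRCm38, minus strand).

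Genes of the related BMP pathway were called in both directions. Of 26 genes 20 were tested, 4 rose and 8 fell. All 4 *Id* genes, inhibitors of basic helix-loop-helix factors and direct targets of BMP-activated SMADs, fell. *Id2* stood at 67.9, 66.0 and 71.3 CPM in uninduced and at 2.01, 1.99 and 1.67 CPM in stimulated cells, a log2 fold change of -5.18 (SE 0.12, adjusted p = 7.2e-25). *Id1* fell by 1.36, *Id3* by 1.20 and *Id4* by 1.89 on the log2 scale. The BMP antagonist *Grem1* rose from 16.9 to 186 CPM, a log2 fold change of 3.46 (SE 0.17, adjusted p = 4.6e-12), and the antagonist *Chrd* fell by 1.46. *Smad9*, a transducer of BMP signals, fell by 3.13, whereas *Smad1* and *Smad5* had values of -0.021 and -0.16 and were not called. With the DESeq2 Wald test 2 genes of the list rather than 4 were called higher.

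Contractile genes rose in part. Of 33 genes of the actin cytoskeleton 30 were tested, 12 rose and 3 fell, with a median log2 fold change of 0.81. *Acta2* (ENSMUSG00000035783, chromosome 19 at 34241090 to 34255336, GRCm38), which encodes smooth muscle α-actin and defines the myofibroblast, stood at 253, 292 and 276 CPM in uninduced and at 1995, 2133 and 1979 CPM in stimulated libraries. It rose 7.43-fold, a log2 fold change of 2.89 (SE 0.054, adjusted p = 4.7e-27), and the groups lay far apart relative to their spread. *Actg2*, the enteric smooth muscle actin, rose by 2.24, *Csrp2*, a LIM protein of smooth muscle, by 2.25 and *Actn1*, an actin crosslinker, by 1.89. The cytoplasmic actin *Actg1* rose less, by 1.08. *Myl9*, a regulatory light chain of myosin, read 38.9, 36.8 and 44.4 CPM uninduced and 103, 115 and 103 CPM stimulated, a log2 fold change of 1.41 (SE 0.11, adjusted p = 4.7e-12). Not every gene of the programme moved in this way. *Mylk*, the kinase that phosphorylates that light chain, fell by 1.89 on the log2 scale (SE 0.15, adjusted p = 5.2e-12), *Lmod1*, a leiomodin of smooth muscle, fell by 1.60, and the tropomyosin genes *Tpm1* and *Tpm2* had values of -0.39 and 0.060 and were not called. The remaining fall, *Des*, had group means of 0.480 and 0.150 CPM, and its libraries overlapped (adjusted p = 0.044). Its call was lost without any single WT library other than uninduced replicate 1. *Tagln*, another marker of the myofibroblast, was barely detected, at 0.175, 0.891 and 0.534 CPM in uninduced and 0.734, 0.821 and 0.857 CPM in stimulated libraries, and was not called (log2 fold change 0.57, SE 0.62, adjusted p = 0.44). Another gene, *Gm48529*, covers 67.9% of the exonic length of *Tagln*, so that reads of *Tagln* may have been left uncounted. By RT-qPCR after the same stimulation, the study reported weaker upregulation of *Tagln* in the FOXS1 KO clones than in WT. A WT rise was not detected in these counts.

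The promoters of *Myl9* and *Cnn2* (calponin 2, log2 fold change 1.40, SE 0.050, adjusted p = 2.3e-20) are shown because each holds a CArG box, the site bound by serum response factor in many contractile genes. Each run covers 250 bases before to 50 bases after the annotated start (RefSeq, GRCm38.p6), 5′ to 3′ along the gene, with the CArG box in capitals.
*Myl9*, chr2:156775214-156775513, plus strand: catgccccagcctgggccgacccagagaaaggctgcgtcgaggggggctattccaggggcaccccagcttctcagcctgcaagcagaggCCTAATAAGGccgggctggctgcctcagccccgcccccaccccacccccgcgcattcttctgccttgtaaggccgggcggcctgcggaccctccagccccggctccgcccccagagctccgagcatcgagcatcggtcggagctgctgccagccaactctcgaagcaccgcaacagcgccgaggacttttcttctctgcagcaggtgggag
*Cnn2*, chr10:79988350-79988649, plus strand: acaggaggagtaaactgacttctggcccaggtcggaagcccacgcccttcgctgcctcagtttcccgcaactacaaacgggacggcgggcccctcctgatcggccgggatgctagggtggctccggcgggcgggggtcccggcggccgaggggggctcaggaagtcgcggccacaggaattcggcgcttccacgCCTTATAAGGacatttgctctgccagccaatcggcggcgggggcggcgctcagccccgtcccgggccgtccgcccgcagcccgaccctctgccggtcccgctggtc
The box begins 161 bases before the start of *Myl9* and 56 bases before that of *Cnn2*. Of 33 promoters listed for the contractile genes 7 held a CArG box (21.2%), beside 1.31% of the promoters of all tested genes and 1.63% of all 32851 promoters in the table.

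Matrix genes moved in both directions. Of 24 collagen genes 22 were tested, 7 rose and 9 fell. Their summed share of counts went from 4.42% ± 0.150 to 8.11% ± 0.0875 (SD, n = 3, exact two-sided permutation p = 0.10), and *Col1a1* and *Col3a1* rose. *Col1a1*, a chain of the main fibrillar collagen, stood at 9601, 9571 and 9106 CPM and reached 28843, 29415 and 28331 CPM, a log2 fold change of 1.61 (SE 0.042, adjusted p = 7.6e-24). *Col3a1* read 9147, 8821 and 8366 CPM and then 19676, 19333 and 19803 CPM, a log2 fold change of 1.16 (SE 0.037, adjusted p = 1.3e-21). Stimulated libraries lay above uninduced libraries throughout for both genes. *Col1a2*, the partner chain of *Col1a1*, had a value of 0.69 and stayed below the fold threshold. Collagen V, which sets the width of fibrils, rose in 2 of its chains, *Col5a1* by 2.39 and *Col5a2* by 1.96, and fell in the third, *Col5a3*, by 2.29. *Col12a1*, a fibril-associated collagen, rose by 3.04. *Col7a1*, the anchoring fibril collagen, went from 6.06, 5.77 and 3.89 CPM to 162, 171 and 166 CPM, a log2 fold change of 5.02 (SE 0.15, adjusted p = 2.8e-19).

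The 3 collagen VI genes of the list, which form the microfibrils around cells, fell. *Col6a1* fell by 1.18, *Col6a2* by 1.49 and *Col6a3* by 1.59 on the log2 scale, the last from 799, 659.8 and 681 CPM to 219.7, 258 and 231 CPM. *Col15a1*, a collagen of the basement membrane zone, stood at 98.3, 104 and 97.0 CPM and at 3.47, 4.19 and 4.37 CPM after stimulation, a fall of 4.63 on the log2 scale (SE 0.15, adjusted p = 9.5e-22). *Col4a5* fell by 3.10, whereas the common basement membrane chains *Col4a1* and *Col4a2* had values of 0.95 and 0.95 and were not called.

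Among 22 genes that modify and crosslink collagen, 7 rose and 2 fell. *Lox*, the lysyl oxidase that crosslinks collagen and elastin, stood at 1288, 1312 and 1227 CPM and rose to 5625, 5479 and 5764 CPM, a log2 fold change of 2.14 (SE 0.045, adjusted p = 6.1e-26). *Plod2*, which hydroxylates telopeptide lysines, rose by 2.62, *Loxl3* by 1.88 and *Tgm2*, a transglutaminase, by 2.096. *Loxl4* fell by 2.45. The chaperone *Serpinh1* (HSP47) had a value of 0.19 and was not called.

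Of 34 genes for other matrix proteins 10 rose and 6 fell. *Fn1*, fibronectin, read 8069, 6199 and 6511 CPM uninduced and 20125, 20748 and 18450.2 CPM stimulated, a log2 fold change of 1.51 (SE 0.11, adjusted p = 2.4e-08). *Fmod*, a small proteoglycan that binds collagen, rose by 3.72 on the log2 scale (SE 0.12, adjusted p = 1.7e-18) from 6.997 to 92.9 CPM, and *Fbn1*, the microfibril protein fibrillin 1, by 2.34. *Tnc*, *Fbln5* and *Thbs2* rose by 1.64, 1.80 and 3.12. Other members of the same small proteoglycan family fell. *Dcn*, decorin, which binds collagen and TGF-β, stood at 76.4, 53.7 and 57.4 CPM and at 5.58, 6.13 and 6.40 CPM after stimulation, a fall of 3.36 on the log2 scale (SE 0.12, adjusted p = 2.7e-17). *Lum* and *Ogn* fell by 3.34 and 1.96, and the basement membrane protein *Nid2* fell by 1.89. *Bgn*, biglycan, had a value of 0.64 and *Eln*, elastin, of -0.34, and neither was called.

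Among 24 tested proteases and inhibitors of the matrix 5 rose and 7 fell. The rises include the inhibitor *Timp1* given above and *Plat*, the tissue plasminogen activator, at 2.85 (SE 0.098, adjusted p = 7.8e-21). *Mmp16* and *Mmp9* fell by 1.58 and 2.47, and the abundant *Mmp2*, *Timp2* and *Timp3* had values of 0.87, -0.52 and -0.49 and were not called. Of 21 tested integrins and cadherins 4 rose and 7 fell. *Itga11*, a collagen receptor subunit, rose from 8.83 to 204 CPM, a log2 fold change of 4.51 (SE 0.20, adjusted p = 1.8e-11), and *Itgb5* by 1.12. *Itga8*, *Itga6* and *Itga4*, subunits that bind RGD ligands, laminin and fibronectin or VCAM1, fell by 3.20, 2.47 and 4.47.

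**Figure D3:**
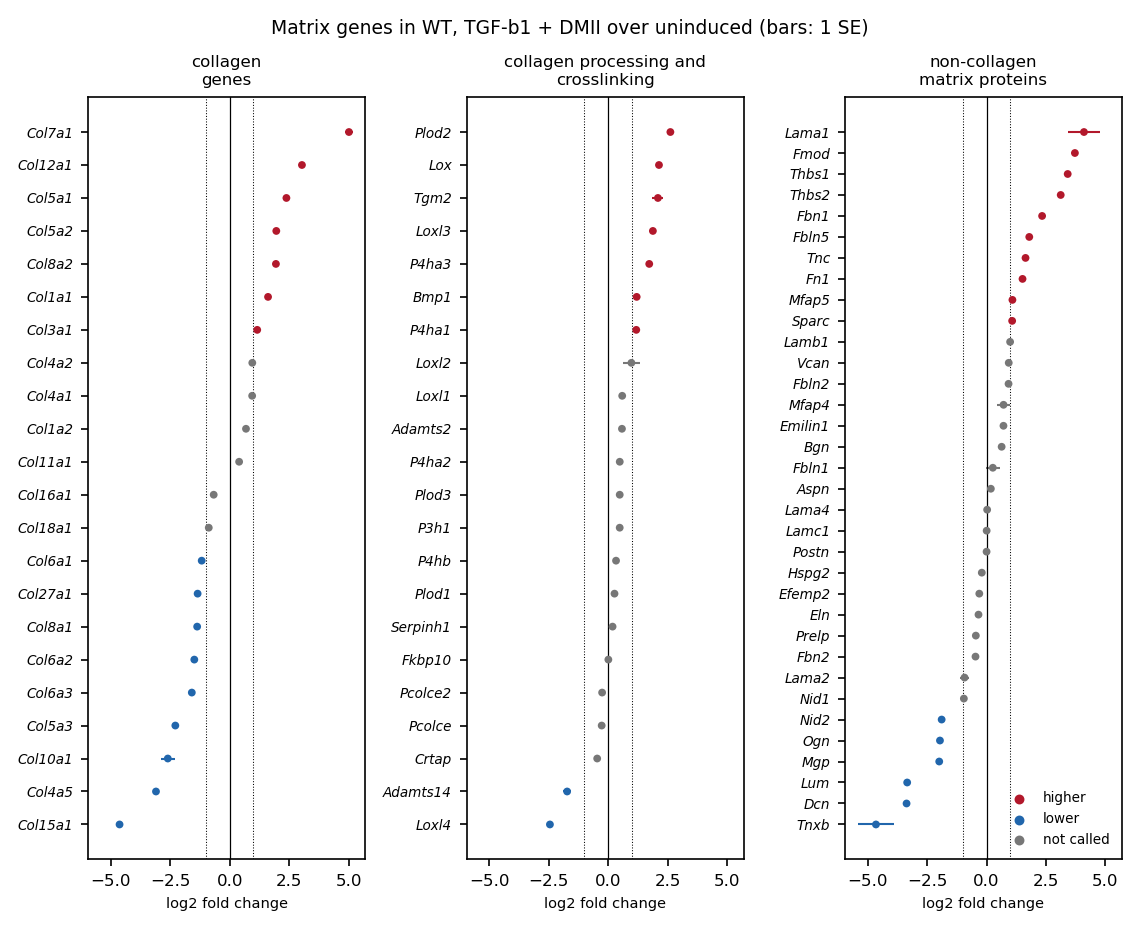
Log2 fold change of stimulated over uninduced WT cells for every tested member of the lists of collagens, collagen processing and other matrix proteins, in rank order, with bars of 1 SE from the edgeR fit. Red members were called higher and blue members lower, dotted lines mark 1 and -1, and collagens run from *Col7a1* (5.02) to *Col15a1* (-4.63).

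Adipogenic transcription factors fell more often than they rose. Of 22 transcription factors that promote adipogenesis 20 were tested, 2 rose and 9 fell, with a median log2 fold change of -0.87. These are 10.0% and 45.0% of the tested members, beside 6.25% and 13.6% of all tested genes. *Pparg* (ENSMUSG00000000440, chromosome 6 at 115360951 to 115490399, GRCm38), the nuclear receptor that commits cells to the adipocyte fate, stood at 51.0, 49.2 and 48.1 CPM in uninduced and at 4.60, 4.02 and 3.92 CPM in stimulated cells. It fell 11.8-fold, a log2 fold change of -3.57 (SE 0.11, adjusted p = 2.8e-22), with no overlap between libraries. *Cebpb* and *Cebpd*, the early factors of the cascade, lay at 164, 197 and 189 CPM and 114, 138 and 137 CPM in uninduced libraries. In stimulated libraries they read 386, 393 and 368 CPM and 273, 275 and 268 CPM. They rose by 1.06 and 1.07 on the log2 scale, just past the threshold, and without uninduced replicate 1 the values were 0.99 and 0.98 and neither was called. *Cebpa*, which acts with PPARγ late in the cascade, went from 90.6, 85.6 and 85.8 CPM to 48.8, 46.5 and 47.5 CPM. Its value of -0.88 (SE 0.064, adjusted p = 6.8e-13) passed the test on p but not the fold threshold. *Stat5a* fell by 1.35 on the log2 scale (SE 0.069, adjusted p = 1.4e-16) from 73.6 to 28.7 CPM. *Klf4*, a very early inducer of *Cebpb*, stood at 82.3, 82.2 and 90.7 CPM and fell to 4.94, 6.13 and 6.13 CPM, a log2 fold change of -3.89 (SE 0.10, adjusted p = 7.8e-24). *Ebf1* and *Nr3c1*, which encodes the glucocorticoid receptor, fell by 1.67 and 1.59.

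Among 19 tested inhibitors of adipogenesis 2 rose and 4 fell. *Hes1*, a repressor downstream of Notch, rose by 1.65 on the log2 scale (SE 0.080, adjusted p = 3.7e-17) and *Foxo1* by 1.15. *Klf2* and *Klf3*, repressors in preadipocytes, fell by 1.81 and 1.04, and *Sox9* and *Twist1* had values of -0.71 and 0.31 and were not called.

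Genes for lipid storage, lipid uptake and adipokines were mostly low and mostly fell where they were called. Of 37 such genes 29 were tested, 2 rose and 11 fell, with a median log2 fold change of -0.77. *Plin4*, a lipid droplet coat protein, stood at 48.2, 36.4 and 43.6 CPM and at 0.0978, 0.0864 and 0.180 CPM after stimulation, a fall of 8.39 on the log2 scale (SE 0.23, adjusted p = 8.5e-20). *Lpl*, the lipoprotein lipase, read 33.4, 32.9 and 28.4 CPM and then 3.86, 4.41 and 3.65 CPM, a fall of 2.99 on the log2 scale (SE 0.20, adjusted p = 5.1e-14). *Dgat2*, which makes triglycerides, fell by 1.46, and the lipases *Lipe* and *Mgll* fell by 1.23 and 2.13. Terminal adipocyte genes were at or near 0 in both groups. Of the 4 tested adipocyte markers *Cidec* alone had a positive log2 fold change, 3.52, and it was not called. *Fabp4*, the fatty acid binding protein of adipocytes, read 1.92, 0.524 and 0.915 CPM uninduced and 0.293, 0.561 and 1.04 CPM stimulated, and the overlap left it uncalled (log2 fold change -0.77, SE 0.42, adjusted p = 0.12). *Adipoq*, adiponectin, had 42 counts in the uninduced libraries, none of them in replicate 1, and none in the stimulated libraries, which makes it at least 14.7-fold lower against a floor of 3 counts per group. Its fitted value of -6.76 was -5.92 without uninduced replicate 3. *Plin1* had 9 counts uninduced and none stimulated, at least 3.16-fold lower, and its call was lost without uninduced replicate 2 (adjusted p = 0.18) and without any single stimulated library (adjusted p up to 0.056). Neither *Adipoq* nor *Plin1* was called in a fit of the 6 WT libraries. *Plin2*, the coat protein found in most cells, went from 195, 221 and 204 CPM to 129, 132 and 132 CPM and was not called (log2 fold change -0.66, SE 0.046, adjusted p = 2.1e-13). The 2 rises were *Cpt1a*, the gate of fatty acid oxidation in mitochondria (1.36), and *Angptl4*, an inhibitor of lipoprotein lipase (1.07). Few genes of fatty acid and sterol synthesis were called. Their shares were 0% and 4.35% higher and 7.14% and 4.35% lower, beside 6.25% and 13.6% of all tested genes. Of 14 tested genes of fatty acid synthesis none rose and 1 fell, the elongase *Elovl6* at -1.86 (SE 0.065, adjusted p = 1.8e-20), and *Fasn* and *Scd2* had values of 0.37 and 0.066. Without uninduced replicate 1 a single gene of this list was called higher. Of 23 tested sterol genes 1 rose and 1 fell. The rise, *Fdps* at 1.15, had overlapping groups. It was not called without uninduced replicate 1 or 2, without stimulated replicate 3 (0.78), or in a fit of the 6 WT libraries. Without uninduced replicate 2 there were 2 falls.

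**Figure D4:**
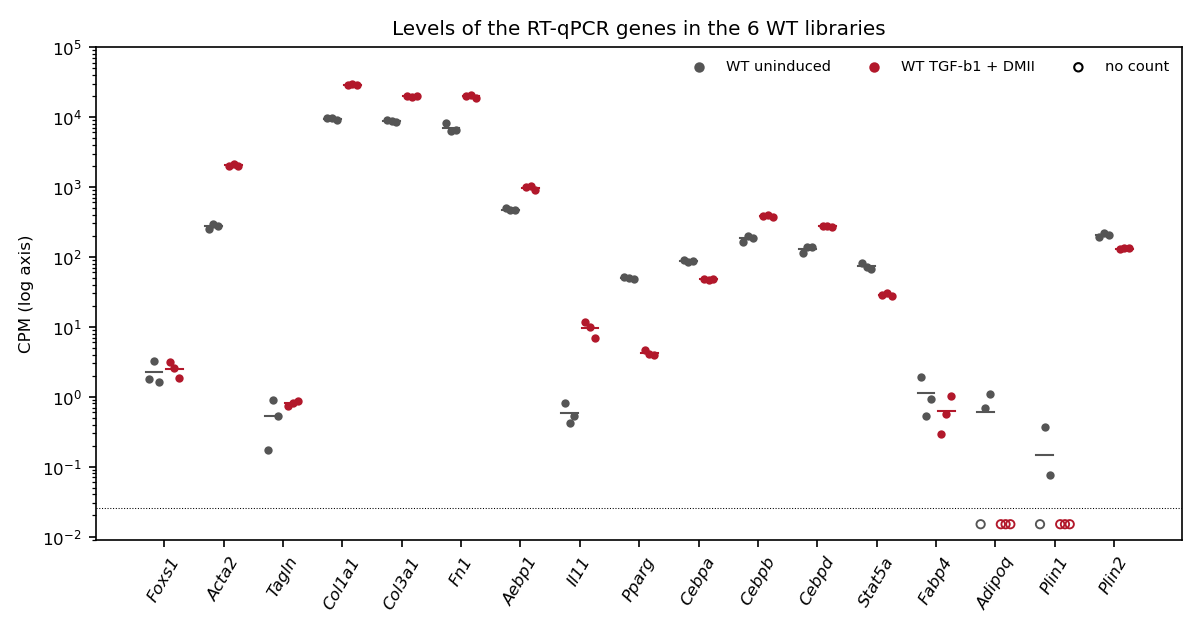
CPM (log axis) in each of the 3 uninduced (grey) and 3 stimulated (red) WT libraries for the 17 genes of the RT-qPCR panel, with group means as lines and libraries without a count as open circles below the dotted line. Of these genes 8 were called higher, 4 lower and 5 not called, and *Adipoq* and *Plin1* had no count in any stimulated library.

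The components of DMII each have known target genes, and these were read next. Of 24 tested genes induced by glucocorticoids 9 rose and 6 fell. *Fkbp5*, a co-chaperone of the glucocorticoid receptor, stood at 7.22, 9.75 and 11.9 CPM and rose to 84.4, 86.6 and 79.2 CPM, a log2 fold change of 3.08 (SE 0.098, adjusted p = 1.9e-18). *Pdk4*, which restrains pyruvate oxidation, read 129.9, 139 and 141 CPM and then 936, 912 and 938 CPM, a rise of 2.76 on the log2 scale (SE 0.061, adjusted p = 1.8e-25). *Sgk1*, a serum and glucocorticoid regulated kinase, lay at 84.0, 108 and 96.1 CPM and at 337, 349 and 335 CPM, a rise of 1.82 on the log2 scale (SE 0.061, adjusted p = 1.4e-20). Libraries of the groups did not overlap for these 3 genes. Other glucocorticoid-induced genes fell: *Tsc22d3* (GILZ) by 1.69, *Klf15* by 3.65 and *Glul*, glutamine synthetase, by 1.46. *Per1* and *Klf9* had values of -0.11 and -0.12 and were not called. The promoter of *Sgk1* is shown because it was the only promoter of this list that held the palindromic glucocorticoid response element, the site bound by the receptor that dexamethasone activates, which is rare in windows of this length (3 of 32851 promoters, 0.00913%). The element is in capitals and begins 189 bases before the start (RefSeq, GRCm38.p6).
*Sgk1*, chr10:21993640-21993939, plus strand: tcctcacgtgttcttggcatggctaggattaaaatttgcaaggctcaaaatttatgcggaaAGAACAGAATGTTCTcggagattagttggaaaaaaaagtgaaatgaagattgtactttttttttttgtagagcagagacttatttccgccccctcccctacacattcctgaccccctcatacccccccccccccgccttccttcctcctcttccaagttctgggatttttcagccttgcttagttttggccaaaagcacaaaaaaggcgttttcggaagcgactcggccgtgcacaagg

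Of 29 tested cAMP-responsive genes and phosphodiesterases 8 rose and 8 fell. Phosphodiesterases, the enzymes that degrade cyclic nucleotides, made up 5 of the rises and 2 of the falls. *Pde7a* stood at 39.6, 32.0 and 34.8 CPM and reached 204, 214 and 207 CPM, a log2 fold change of 2.56 (SE 0.071, adjusted p = 4.4e-23). *Pde7b* and *Pde4d* rose by 2.54 and 1.87, while *Pde8b* and *Pde4a* fell by 2.07 and 1.20. Of the immediate early genes, *Fos* fell by 2.15 on the log2 scale (SE 0.13, adjusted p = 1.5e-09), from 285 to 64.1 CPM, *Fosb* fell by 2.07 and the nuclear receptor *Nr4a1* by 1.41. *Nr4a3* of the same family rose by 2.35. *Ppargc1a*, a coactivator of mitochondrial genes, had 17 counts in uninduced and none in stimulated cells, at least 5.97-fold lower against the floor of 3 counts per group.

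Among 18 tested genes of the insulin and IGF axis 5 rose and 1 fell, the last not in a fit of the 6 WT libraries alone. *Igf1r*, the IGF1 receptor, stood at 120.0, 105 and 102 CPM and rose to 449, 480.2 and 434 CPM, a log2 fold change of 2.06 (SE 0.073, adjusted p = 5.2e-18). *Grb14*, an adaptor that inhibits the insulin receptor, rose from 3.12 to 52.6 CPM (log2 fold change 4.04, SE 0.13, adjusted p = 1.1e-21), and the binding protein *Igfbp7* by 2.13. *Insr* and *Irs1* had values of 0.48 and 0.40 and were not called. Of 15 tested prostaglandin genes 1 rose and 3 fell. The rise was *Ptgs2*, which encodes cyclooxygenase 2, a target of indomethacin: it read 15.2, 20.4 and 23.6 CPM uninduced and 144, 165 and 148 CPM stimulated, a log2 fold change of 2.93 (SE 0.094, adjusted p = 4.4e-18). *Ptgs1* had a value of 0.44 and was not called.

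Genes of ribosome biogenesis rose in part. Of 30 MYC-linked genes of ribosome biogenesis 14 rose and none fell, with a median log2 fold change of 0.97. *Myc* stood at 37.6, 33.3 and 35.3 CPM and rose to 124, 133 and 115 CPM, a log2 fold change of 1.81 (SE 0.079, adjusted p = 9.3e-18). *Nop56*, a core protein of small nucleolar particles, rose by 1.78, the nucleolar GTPase *Gnl3* by 1.73, the nucleolar phosphoprotein *Nolc1* by 1.58, and *Nop2*, an rRNA methyltransferase, by 1.51. *Npm1* and *Ncl*, abundant nucleolar proteins, had values of 0.59 and 0.54 and were not called. Ribosomal protein genes held 5.34% ± 0.461 of the counts in uninduced and 5.67% ± 0.173 in stimulated libraries (exact two-sided permutation p = 0.40), a difference within the spread. The promoter of *Nop2* is shown with its E-box, the CACGTG sequence bound by MYC, in capitals. The box begins 60 bases before the start (RefSeq, GRCm38.p6).
*Nop2*, chr6:125131633-125131932, plus strand: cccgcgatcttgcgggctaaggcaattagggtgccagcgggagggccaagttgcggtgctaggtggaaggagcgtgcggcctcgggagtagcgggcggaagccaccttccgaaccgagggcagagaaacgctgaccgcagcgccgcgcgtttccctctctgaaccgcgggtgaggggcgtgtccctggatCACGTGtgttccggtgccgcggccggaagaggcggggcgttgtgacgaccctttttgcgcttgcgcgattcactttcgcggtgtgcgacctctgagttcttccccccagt
Of 27 promoters of the list 9 held this box on either strand (33.3%), beside 9.69% of promoters of tested genes and 7.15% of all promoters.

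Of 28 genes of the unfolded protein and integrated stress responses 9 rose and none fell. The 9 were *Atf4*, a factor that governs amino acid supply, and 8 of its known targets. *Atf4* itself read 103, 105 and 105 CPM and then 306, 301 and 279.6 CPM, a log2 fold change of 1.504 (SE 0.051, adjusted p = 6.4e-21). *Chac1*, a glutathione-degrading enzyme, rose by 2.54, *Mthfd2* of mitochondrial one-carbon metabolism by 2.47 and *Asns*, asparagine synthetase, by 1.67. Chaperones of the endoplasmic reticulum were not called, with *Hspa5* at 0.42, *Calr* at 0.055 and *Hsp90b1* at -0.19. *Ddit3*, which encodes CHOP, had a value of 0.018.

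Shares of proliferation genes called higher were near the 6.25% of all tested genes. They were 3.33% for DNA replication, 6.67% for mitosis and 7.14% for cyclin D and CDK inhibitor genes. Shares called lower were 0%, 0% and 7.14%, beside 13.6% of all tested genes. Below the fold threshold mitosis genes lay mostly higher, with a median log2 fold change of 0.42. For 20 of 30 mitosis genes all stimulated libraries lay above all uninduced libraries, and for 1 below. These shares were 11 and 7 of 30 for DNA replication and 2 and 8 of 14 for cyclin D and CDK inhibitor genes, beside 29.9% and 32.1% of all tested genes. Of 30 DNA replication genes 1 was called higher, *Cdt1* at 1.03 (0.81 without uninduced replicate 1, then not called), and of 30 mitosis genes 2, *Hmmr* at 1.23 and *Plk1* at 1.11 (0.99 without that library, then not called). None of these genes fell, but without uninduced replicate 2 the counts for DNA replication were 3 higher and 1 lower. Of 14 tested cyclin D and CDK inhibitor genes 1 rose and 1 fell. The fall was *Cdkn1a*, the inhibitor p21, at -1.01, and it was not called without uninduced replicate 1 (-0.93) or stimulated replicate 2 (-0.96). The proliferation marker *Mki67* had a value of 0.46 and *Pcna* of 0.33. *Ccnd2*, cyclin D2, rose by 1.04, and the inhibitors *Cdkn1b* and *Cdkn2a* had values of -0.39 and -0.13 and were not called.

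Interferon-stimulated and antigen presentation genes fell in their majority. Of 28 tested genes 19 fell and none rose, with a median log2 fold change of -2.50. *Irf9*, a transcription factor of the complex that binds interferon response elements, read 36.9, 36.8 and 33.3 CPM and then 7.48, 6.997 and 7.48 CPM (log2 fold change -2.28, SE 0.11, adjusted p = 7.5e-17). Every stimulated library lay below every uninduced library. Among effectors, *Ifit3* went from 12.0, 10.4 and 13.6 CPM to 0.0978, 0.389 and 0.271 CPM, a fall of 5.51 on the log2 scale (SE 0.27, adjusted p = 7.2e-17), and the GTPases *Gbp2* and *Gbp3* fell by 4.43 and 4.55. *Ifit3* has a near-identical neighbour, *Ifit3b*, which fell from 564 counts to 2, a ratio of 297 (exact 95% interval 81.8 to 2458), both counts in stimulated replicate 2, and reads may be split between the copies. *Tap1*, the peptide transporter of antigen presentation, fell by 2.22, and *Psmb8*, a subunit of the immunoproteasome, by 3.93. *B2m* and *Irf1* had values of -0.52 and -0.45 and were not called.

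Chemokine, cytokine and complement genes moved both ways. Of 30 tested 5 rose and 8 fell. *Il1rl1*, the receptor ST2 for IL-33, stood at 20.5, 19.5 and 30.2 CPM and rose to 546, 491 and 566 CPM, a log2 fold change of 4.49 (SE 0.12, adjusted p = 2.9e-16). The IL-6 family cytokines *Lif* and *Il6* rose by 3.28 and 2.69. *C3*, the central complement component, fell from 222, 178 and 212 CPM to 46.2, 49.0 and 37.9 CPM, a log2 fold change of -2.20 (SE 0.11, adjusted p = 7.2e-11), and *C4b* fell by 2.72. The monocyte chemokine *Ccl2* fell by 1.74, and the NF-κB subunits *Nfkb1* and *Nfkb2* had values of -0.14 and -0.081 and were not called.

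Growth factor genes were often called. Of 28 tested PDGF, FGF, VEGF and EGF family genes 11 rose and 8 fell, 39.3% and 28.6% of them beside 6.25% and 13.6% of all tested genes. All 11 rises were ligands. *Hbegf*, an EGF receptor ligand, stood at 3.09, 4.14 and 4.23 CPM and rose to 58.2, 61.0 and 55.5 CPM, a log2 fold change of 3.91 (SE 0.10, adjusted p = 2.1e-23). *Pdgfc* read 5.13, 8.55 and 7.05 CPM and then 100.1, 98.9 and 106 CPM, a log2 fold change of 3.87 (SE 0.12, adjusted p = 2.3e-21). *Vegfa* rose by 2.22 from 40.4 to 189 CPM, and *Fgf18* by 3.13. *Fgf21*, an endocrine FGF, had no count in uninduced and 70 counts in stimulated cells, at least 22.2-fold higher against the floor of 3 counts per group. Receptors and other ligands fell: *Fgfr3* by 3.26, *Fgfr2* by 1.40, *Met* by 1.54, *Fgf10* by 2.86 and *Vegfd* by 2.04. *Pdgfra*, *Pdgfrb* and *Fgfr1* had values of 0.50, 0.76 and 0.50 and were not called.

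Of 23 tested Wnt genes 5 rose and 4 fell. *Nkd1* and *Notum*, feedback inhibitors that Wnt signalling induces, rose by 4.08 and 3.09, and *Sfrp1*, a secreted Wnt antagonist, rose from 143 to 652 CPM (log2 fold change 2.19, SE 0.056, adjusted p = 6.8e-24). *Sfrp2*, a close relative, went the opposite way, from 231, 258 and 249.9 CPM to 36.5, 40.0 and 36.1 CPM (log2 fold change -2.71, SE 0.074, adjusted p = 4.6e-22). In the Notch pathway *Notch3* stood at 16.2, 13.7 and 12.9 CPM and rose to 116, 114 and 118 CPM, a log2 fold change of 3.03 (SE 0.077, adjusted p = 5.2e-24). *Notch2* and its ligand *Jag1* rose by 1.61 and 1.43, whereas *Notch1* had a value of -0.82 and was not called. Of its targets *Hes1* rose by 1.65. *Hey1* was called higher at 1.39, but at 1.01, 1.15, 1.33 and 1.35 without uninduced replicate 1, uninduced replicate 3, stimulated replicate 2 or stimulated replicate 3 it was not called, and without uninduced replicate 2 it stood at 2.33. *Heyl* and *Hey2*, targets as well, fell by 2.06 and 3.93. In the Hedgehog pathway *Ptch1*, receptor and target at once, fell by 1.62 and *Gli2* by 1.20. Of 18 targets and partners of YAP and TEAD 6 rose and 1 fell, and *Ccn1*, a matricellular protein, rose by 2.08 on the log2 scale (SE 0.15, adjusted p = 3.0e-08) from 152 to 643 CPM. The classical target *Ankrd1* had a value of -0.31 and was not called.

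Of 26 tested glycolysis and hypoxia genes 3 rose (11.5%) and 4 fell (15.4%), the falls close to the 13.6% of all tested genes. *Hk2*, the inducible hexokinase, rose from 8.37 to 70.7 CPM (log2 fold change 3.05, SE 0.11, adjusted p = 6.8e-20), while the hypoxia markers *Car9* and *Ndrg1* fell by 6.43 and 2.98. Enzymes from *Pkm* to *Ldha* stayed below the threshold, with values of 0.71 and 0.073. Among 23 tested antioxidant genes 3 rose (13.0%) and 4 fell (17.4%), the falls again close to the share of all tested genes. The falls were glutathione transferases: *Gstm1* stood at 589, 670.1 and 607 CPM and at 59.2, 67.2 and 61.9 CPM after stimulation, a fall of 3.31 on the log2 scale (SE 0.054, adjusted p = 2.3e-28), and *Gsta4*, *Gsta3* and *Gstm2* fell by 2.71, 3.74 and 1.19. These families hold closely related copies, so that counts may be shared among them. Of 16 tested core clock genes 2 rose and 8 fell. *Arntl* (BMAL1), of the activating arm, rose by 1.72 on the log2 scale (SE 0.10, adjusted p = 4.7e-15), and genes that this arm drives fell: *Per3* went from 17.5, 19.3 and 19.1 CPM to 0.440, 0.518 and 0.812 CPM, a fall of 4.96 on the log2 scale (SE 0.21, adjusted p = 8.5e-19), and *Tef* and *Cry2* fell by 2.97 and 1.88. *Dbp* fell from 35.1, 38.5 and 33.3 CPM to 0.293, 0.993 and 0.316 CPM, a log2 fold change of -6.01, or of -6.82 without stimulated replicate 2. *Clock* and *Per1* had values of -0.073 and -0.11. The hours at which the groups were harvested are not given in the labels, so that time of day and treatment cannot be told apart for these genes.

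Of 16 tested bone and cartilage genes 4 rose and 4 fell. The cartilage genes *Acan*, aggrecan, and *Sox6* and *Sox5*, partners of SOX9, fell by 4.57, 3.94 and 3.10, and *Phex*, a peptidase of bone mineralisation, fell from 39.4, 35.1 and 35.1 CPM to 1.22, 1.64 and 1.89 CPM (log2 fold change -4.51, SE 0.18, adjusted p = 6.2e-19). *Alpl*, the alkaline phosphatase of mineralising cells, went from 1 count in the uninduced libraries to 751 in the stimulated libraries, a ratio of 713 (exact 95% interval 128 to 28211), and the single count was in replicate 3. The bone factor *Runx2* had a value of -0.017 and was not called. Among 22 tested mesenchymal transcription factors 5 rose and 2 fell. *Zeb1* rose by 1.07 and *Zeb2* fell by 1.31, paralogs often named together, and *Foxf2* and *Hmga2* rose by 1.88 and 1.21. Of the fibroblast markers, *Ly6a* (SCA-1) fell from 88.5 to 9.43 CPM, *S100a4* fell by 2.04, and *Vim*, vimentin, which fibroblasts hold in abundance, fell from 7173, 7579 and 7022 CPM to 2019, 2098 and 1965 CPM (log2 fold change -1.84, SE 0.038, adjusted p = 4.1e-26).

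Over the whole transcriptome, *Prg4* had the largest rise among called genes with at least 5 CPM in the higher group and no overlap of libraries. *Prg4* (ENSMUSG00000006014, chromosome 1 at 150449412 to 150466165, GRCm38) encodes lubricin, the lubricant glycoprotein of joints, and went from 4.95, 2.88 and 3.81 CPM to 3134, 3168 and 2835 CPM, a log2 fold change of 9.63 (SE 0.16, adjusted p = 2.7e-16). All 3 stimulated libraries lay far above the uninduced libraries. *Ctla2a*, an inhibitor of cysteine proteases, rose from 0.699, 0.157 and 0.305 CPM to 53.2, 54.5 and 57.1 CPM (7.20, and 7.79 without uninduced replicate 1), and *Gpr153*, an orphan receptor, rose by 5.996. *S100g*, calbindin D9k, and *Ctsw*, cathepsin W, went from 2 counts to 758 and from 3 counts to 330, ratios of 360.0 (exact 95% interval 99.3 to 2978) and 104 (exact 95% interval 35.4 to 509). Fitted values of such genes turn on single counts: for *S100g* the log2 fold change was 8.25, but 10.97 without uninduced replicate 2 and 7.57 without replicate 3, and for *Ctsw* it was 6.58, but 9.75 without replicate 3.

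The deepest falls ended at or near 0. *Gm765*, *Wipf3*, *Cntfr*, the receptor of ciliary neurotrophic factor, and *Fam180a* had 600, 552, 505 and 461 counts in the uninduced libraries and none in the stimulated libraries. They were at least 211-fold, 194-fold, 177-fold and 162-fold lower against a floor of 3 counts per group. In all, 72 genes with at least 30 counts in uninduced cells had none in stimulated cells, and 14 genes showed the converse. *Clec3b*, the secreted protein tetranectin, fell from 148, 165 and 163 CPM to 0.293, 0.475 and 0.271 CPM, a log2 fold change of -8.80 (SE 0.13, adjusted p = 2.0e-29). *Sned1*, a matrix protein, read 368, 305 and 311 CPM and then 1.66, 0.907 and 2.62 CPM (log2 fold change -7.57, SE 0.22, adjusted p = 7.1e-13), and *Adh1*, an alcohol dehydrogenase that acts on retinol, fell by 7.59. Measured as CPM per kilobase of gene length, 7 genes were among the 10 most abundant in both groups. *Ptn*, the growth factor pleiotrophin, was among them only in uninduced cells and fell from 2709 to 276 (log2 fold change -3.30, SE 0.055, adjusted p = 2.2e-27), and *Col1a1*, *Sparc* and *Fstl1*, which encode secreted or matrix proteins, only in stimulated cells, where they rose from 1436 to 4398, 1123 to 2369 and 956 to 2034 on that scale.

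Among transcription factors with a mean of at least 5 CPM in the higher group and no overlap between libraries, the rises with the largest fold changes were *Nfatc2*, a calcineurin-regulated factor, *Scx* and *Zfp469*. *Scx* read 1.86, 3.09 and 4.76 CPM and then 30.9, 34.4 and 30.8 CPM, a log2 fold change of 3.25 (SE 0.20, adjusted p = 4.1e-13), and *Zfp469* rose by 3.04. *Nfatc2* rose from 0.525 to 8.32 CPM, a log2 fold change of 3.94, or of 4.54 without uninduced replicate 2. *Ahr*, the aryl hydrocarbon receptor, and *Maff* rose by 2.56 and 2.38. The deepest falls were *Dbp*, *Id2* and *Maf*, a bZIP factor that fell from 34.0, 39.2 and 37.5 CPM to 0.929, 1.47 and 2.30 CPM (log2 fold change -4.54, SE 0.20, adjusted p = 5.1e-16), with *Klf4*, *Pparg* and *Sox6* among the next. Of 412 tested long noncoding RNA genes that reached 1 CPM, 33 rose and 106 fell, beside 6.25% and 13.6% of all tested genes. *Gm48197* fell from 7.75, 7.08 and 6.90 CPM to 0.685, 0.346 and 0.180 CPM, a log2 fold change of -4.16 (SE 0.41, adjusted p = 1.1e-09).

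Letters of promoters were counted for genes called in each direction, as a description. Of the tested genes 10148 matched a promoter by symbol, 631 of those called higher and 1398 of those called lower. The AP-1 site (TGANTCA) stood in 7.34% of promoters of genes called higher and 7.64% of those called lower, beside 5.25% of those of tested genes and 7.81% of all promoters. The cAMP response element (TGACGTCA) stood in 3.99% and 1.21%, beside 3.01% and 1.79%, and the CArG box in 2.19% and 1.11%. The promoter of *Il11* is shown because, of the 4 promoters of TGF-β targets with an AP-1 site, it belongs to the gene with the largest rise, and the site is in capitals and begins 98 bases before the start (RefSeq, GRCm38.p6).
*Il11*, chr7:4778092-4778391, minus strand: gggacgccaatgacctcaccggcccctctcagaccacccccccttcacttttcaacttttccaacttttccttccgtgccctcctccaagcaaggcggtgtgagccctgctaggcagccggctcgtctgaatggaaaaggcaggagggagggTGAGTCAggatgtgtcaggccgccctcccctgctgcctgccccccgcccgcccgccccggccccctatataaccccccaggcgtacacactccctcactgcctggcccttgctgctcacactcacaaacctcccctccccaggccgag
All motifs were searched on both strands.

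The libraries labelled FOXS1 KO, of 2 single-cell derived clones under the same treatments, show where the WT response differed. The total of *Foxs1* counts does not show the edit, since it was higher in the 12 libraries labelled FOXS1 KO, at 21.1 to 56.8 CPM, than in the 6 WT libraries, at 1.64 to 3.25 CPM. Both comparisons use the same WT libraries. The response was higher than in WT in both clones for 3.12% of the tested genes and lower in both for 1.6%. Of the 895 genes that rose in WT, 113 had a lower response in both clones, 24 a higher one and 589 no called difference in either. Of the 1954 genes that fell in WT, 251 had a higher response in both clones, 24 a lower one and 1298 no called difference in either. These genes were chosen by their WT change, which both differences subtract. That choice favours differences opposite to the WT change in both clones, by an amount that was not tested.

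Of 30 tested contractile genes 9 differed downward in both clones, beside 1.6% of all tested genes, and of 20 tested adipogenic transcription factors 9 differed upward, beside 3.12%. Among all lists the glucocorticoid-induced genes had the largest share upward, 15 of 24 tested, with 0 downward. Other lists also stood above 3.12%: 11 of 29 lipid storage genes, 8 of 29 cAMP-responsive genes, 7 of 23 antioxidant genes and 7 of 30 chemokine genes. Downward in these 4 lists were 0, 1, 0 and 1. *Acta2* rose by 2.89 in WT and had values of -0.44 in clone 1 and 0.74 in clone 2, differences of -3.34 (SE 0.074, adjusted p = 3.8e-24) and -2.15 (SE 0.073, adjusted p = 1.0e-19). *Pparg*, at -3.57 in WT, had values of -0.086 and -0.93, differences of 3.48 (SE 0.14, adjusted p = 1.7e-18) and 2.63 (SE 0.14, adjusted p = 3.3e-15). *Stat5a* fell by 1.35 in WT and had values of 1.62 and 0.67. *Plin4* had values of -0.31 and -3.43 in the clones beside its fall of 8.39 in WT, and *Myl9* of -5.61 and -2.84 beside its rise of 1.41. *Col1a1* differed less. Its values were 1.38 and 1.46 in the clones and 1.61 in WT, with differences of -0.24 (SE 0.057, adjusted p = 0.0018) and -0.15 (SE 0.057, adjusted p = 0.041), neither called. *Pmepa1* likewise had values of 5.37 and 5.74 beside 5.53 in WT, with differences of -0.16 and 0.21, neither called.

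**Figure D5:**
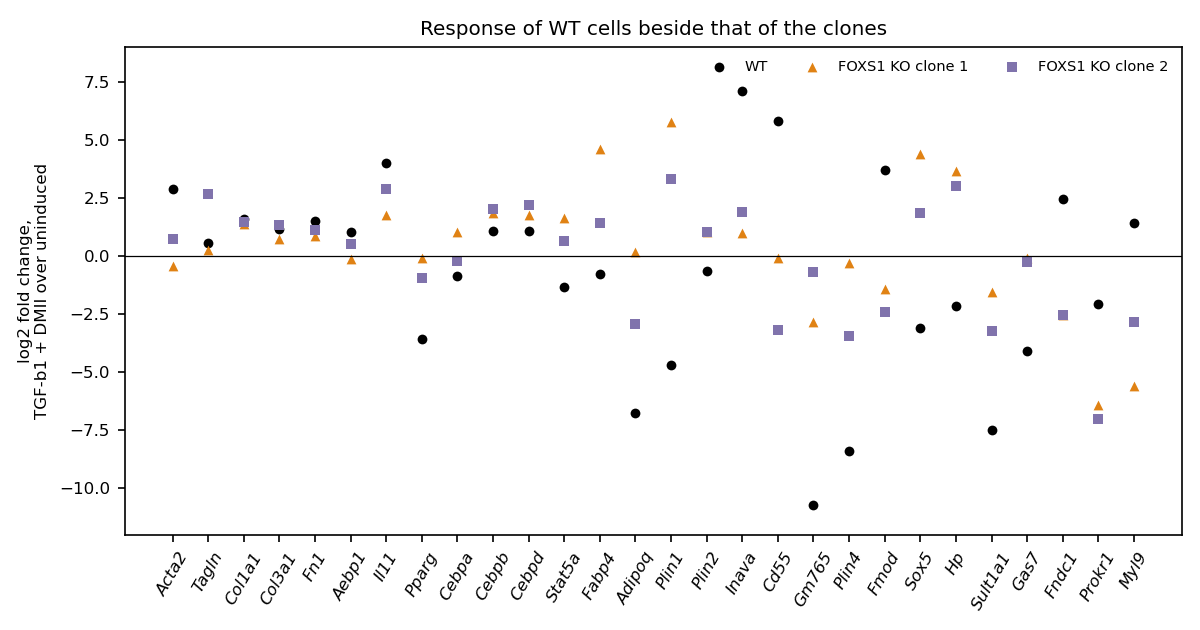
Log2 fold change of stimulated over uninduced cells in WT (black circles), FOXS1 KO clone 1 (orange triangles) and clone 2 (violet squares) for 16 RT-qPCR genes and for the genes with the largest differences called in both clones, 12 in all and chosen for that difference. Values of *Gm765*, *Adipoq* and *Plin1* in WT rest on stimulated libraries without a count and are not bounds; *Acta2* and *Myl9* lie higher in WT than in both clones and *Pparg* and *Plin4* lower.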

How the data were processed

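The deposited table held raw read counts per gene, which the authors made from bulk RNA sequencing reads of all 18 libraries. The submitters' processing notes name HISAT2 and mm10. For the counting program, its strand setting and the annotation, nothing was given in the sources used here. Of the genes found in GENCODE M21, 53499 of 54409 had the same coordinates there. Transcription factor families, lengths and positions were taken from the table. The table has 54532 genes, and 21926 had a count in WT.

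Counts were fitted with edgeR 4.0.16 (R 4.3.3) as 1 model of all 18 libraries with 6 group means, TMM scaling and a quasi-likelihood test. Genes had to pass the edgeR filter on low counts with a minimum of 10, run on all 18 libraries. DEGs passed a p of 0.05 after Benjamini-Hochberg adjustment and a log2 fold change of 1 in either direction. The biological coefficient of variation was 0.076. The same script was tested on simulated data. Summed shares were compared by exact permutation tests (scipy 1.17.1). A group without a count was set to a floor of 3 counts summed over its libraries (0.0480 CPM uninduced, 0.0456 CPM stimulated). Ratios with 1 to 3 counts have exact 95% binomial intervals. Both cover counting error only. Alternatives were DESeq2 1.42.0, its size factors, other filters, a fit of the 6 WT libraries, a replicate block, a test against the fold threshold, no fold threshold and leaving out each WT library.

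The members and lists (40, with 876 genes) were chosen with earlier results of these data known. Named genes were the 17 RT-qPCR genes, the 12 largest rises and falls with a mean of 5 CPM or more and no overlap, up to 4 called members a direction and 3 abundant uncalled members per list, the 8 largest rises and falls among transcription factors, the 10 most abundant genes per length, genes without a count in 1 group (at least 30 in the other), long noncoding RNAs above 1 CPM, and the largest differences between WT and both clones. Other list members were named for their role after their values were seen. Promoters were taken from RefSeq, GRCm38.p6, 32851 in all. Values of some members of the lists are not reported here.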

Additional observations from a re-analysis of the deposited data

Results flagged for a closer look

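The results below are those for which the response in a FOXS1 KO clone differed from that in WT cells by a test of the difference itself (edgeR interaction contrast, adjusted p below 0.05 and a difference above 1 on the log2 scale). Values are the response of the clone minus that of WT, as log2, each clone had 3 libraries per condition, and both clones are compared with the same WT libraries.

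Among the RT-qPCR genes, *Acta2* (smooth muscle α-actin) differed by -3.34 in clone 1 and -2.15 in clone 2. *Aebp1* and *Il11* were called in clone 1, at -1.18 and -2.24, and stood at -0.52 and -1.14, not called, in clone 2. The adipogenic factors differed upward: *Pparg* by 3.48 and 2.63, *Stat5a* by 2.97 and 2.02, *Cebpa* by 1.91 in clone 1 and *Cebpd* by 1.11 in clone 2. Lipid genes also differed upward: *Fabp4* by 5.37 and 2.17, *Plin1* by 10.45 and 8.002, *Plin2* by 1.69 and 1.69, and *Adipoq* by 6.92 in clone 1. Stimulated WT libraries held no read of *Plin1* or *Adipoq*, so that these sizes depend on the prior count. Both genes passed the filter on low counts through the clone libraries, since too few WT libraries held enough reads. Passing in this way favours an upward difference, by an amount that was not tested.

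The other genes were chosen for the size of this difference, and their values are given as a description. Upward were *Gm765* (7.89 and 10.07), *Plin4* (8.08 and 4.96), *Sox5* (7.50 and 4.95), *Hp*, the plasma protein haptoglobin (5.82 and 5.15), *Sult1a1*, a sulfotransferase (5.94 and 4.26), and *Gas7* (4.005 and 3.86). Downward were *Myl9* (-7.03 and -4.25), *Cd55*, a complement inhibitor (-5.92 and -9.02), *Inava* (-6.10 and -5.21), *Fmod* (-5.14 and -6.11), *Fndc1* (-5.00 and -5.00) and *Prokr1*, a prokineticin receptor (-4.34 and -4.94). Stimulated WT libraries held no read of *Gm765* either, so that its sizes depend on the prior count. The WT response of *Inava* went from 7.11 to 9.78 without uninduced replicate 3, that of *Cd55* from 5.81 to 6.73 without uninduced replicate 2, and that of *Sult1a1* from -7.48 to -10.11 without stimulated replicate 2.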

How the results depend on the processing

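No result reversed its direction under any alternative, and no gene was called in opposite directions. Called genes in both directions together numbered 2849 and ranged from 2526 (fit of the 6 WT libraries, 13372 genes tested) to 3163 (no filter beyond 1 count), with 2882 in DESeq2, 2855 with its size factors and 2571 with a filter of 1 CPM. Without single libraries they ranged from 2785 to 3116, and 90.8% to 94.0% of the calls were shared. Genes called higher made up 31.0% to 34.4% of the calls. A test against the fold threshold left 559 higher and 1260 lower, and no fold threshold gave 4125 and 4568. The replicate block gave 2799 calls, of which 2779 were shared, and differences between the clones and WT of 441 higher and 230 lower genes. The block ended the call of *Des* and added that of *Cxcl16* among list members. Uninduced and stimulated libraries of the same number did not deviate together across genes (r of -0.011, -0.038 and 0.010), nor did each correlate best with its own number. A weak pairing, or one limited to some genes, would not show in these values, and the labels state none.

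Counts in lists moved by more than 1.5 times as follows, and the cause was not tested. In DESeq2, BMP genes had 2 higher. In the fit of the 6 WT libraries, sterol genes had 0 higher, and IGF axis genes and adipocyte markers 0 lower. Without the filter, DNA replication genes had 2 higher, CDK inhibitor genes 2 higher and 0 lower, and endothelial markers 2 lower. With the filter of 1 CPM, which tests fewer genes, chemokine genes had 3 higher and clock genes 1 higher. Leaving out 1 library, the ranges were 2 to 4 lower for TGF-β ligands, 0 to 2 higher for adipogenic factors, 0 to 1 higher for fatty acid synthesis, 0 to 1 higher and 1 to 2 lower for sterol genes, 1 to 3 higher and 0 to 1 lower for DNA replication, 1 to 3 higher for mitosis, 1 to 2 higher and 0 to 2 lower for CDK inhibitor genes, 1 to 2 lower for adipocyte markers and 0 to 1 higher for skeletal muscle markers. Genes under about 1 CPM were those at which depth limits the comparison: 3 counts per group stand for 0.0480 CPM uninduced and 0.0456 CPM stimulated.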
